A study of Danio rerio with 2 samples.

Results

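The genes described here encode membrane carriers of amino acids and of neurotransmitters derived from them. They were taken by name from 2 gene tables of zebrafish RNA sequencing, as every feature whose name begins with slc1a, slc3a, slc6a, slc7a, slc32a, slc36a, slc38a or slc43a, with the creatine carrier slc6a8 left out. This gave 34 of 27098 features in 8 families, 10 of them in slc6a, 8 in slc7a, 6 in slc1a, 4 in slc38a, 3 in slc43a and 1 each in slc3a, slc32a and slc36a. All 34 had at least 10 reads in one pool or the other. The name slc7a6os also matches, but it belongs to a gene beside slc7a6 that does not encode a carrier, so 33 of the features are carrier genes or carrier subunits.

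The embryo group was 1 library of whole zebrafish embryos, in which each RNA sample came from 15 animals, and the liver group was 1 library of livers dissected from adult zebrafish. Both groups had been kept for 48 h with 9 compounds known to harm the human liver, namely amiodarone, valproic acid, paraquat, tetracycline, chlorpromazine, thioacetamide, acetaminophen, cyclosporine A and 17a-ethynylestradiol, and the RNA of all exposures was mixed into a pool for each source. Strain, embryo age, adult sex and the presence of unexposed animals are not stated in the labels. Because the RNA was pooled, no value belongs to a single compound. Both pools had the same compounds and time. A difference between the sources therefore cannot be told apart from a response to the compounds that differs between them. Tissue and age, embryo against adult, cannot be told apart either. With 1 library per group there was no replicate check and no p-value, and the intervals given in brackets after ratios are exact 95% intervals that cover counting error only.

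As background, carriers of the slc1 family couple the uptake of glutamate or small neutral amino acids to ion gradients, and those of the slc6 family use sodium and chloride to take up monoamines, glycine, GABA, taurine or neutral amino acids. Many slc7 proteins are light chains that reach the membrane only when joined to a heavy chain of the slc3 family, whereas the cationic amino acid carriers of slc7 work alone. The slc32 protein fills synaptic vesicles with GABA and glycine, the slc36 and slc38 proteins move small neutral amino acids or glutamine, and slc43 proteins let large neutral amino acids pass. The liver draws amino acids from the blood for protein synthesis, gluconeogenesis and nitrogen disposal, and the brain uses members of the same families to end synaptic signals.

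The embryo library held 11408727 reads assigned to genes and the liver library 13020149. All 9 hepatocyte markers examined were higher in the liver pool, where they summed to 88575 CPM (reads scaled to a common library size) against 3857 CPM in the embryo pool. Neuron markers summed to 2608 CPM in the embryo pool, against 7.91 CPM in the liver pool, where elavl3, stmn2a and both neurofilament genes examined had 0 reads. The other marker lists of nervous tissue and sense organs, muscle, epidermis, gut and kidney summed to between 205 and 41454 CPM among embryo reads, against 0.384 to 1142 CPM among liver reads. The liver pool also held reads of exocrine pancreas (1895 CPM, against 5999 CPM in the embryo pool), red cells (209.9 CPM, against 361 CPM), endothelium (87.1 CPM, against 90.9 CPM), leukocytes (56.9 CPM, against 105 CPM) and ovary (8.45 CPM, against 1.05 CPM). Of 4 bile duct markers krt18 gave 815.7 of the summed 839.6 CPM, against 289.5 CPM among embryo reads, and anxa4, her6 and sox9b were lower in the liver pool. In such bulk samples fewer cells of a type and less RNA per cell cannot be told apart.

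With library totals the 34 genes took nearly the same share of total gene reads in both libraries, but different genes made up that share. Together the 34 genes had 30104 embryo reads and 31615 liver reads, or 2639 CPM and 2428 CPM. In the liver pool slc38a4 alone held 58.6% of these reads (58.0 to 59.13). In the embryo pool slc1a2 held 37.4% (36.8 to 37.9), and slc38a4 held 7.01% (6.72 to 7.30). The liver to embryo ratio of the sum was 0.920 (0.906 to 0.935) with library totals and 2.35 with trimmed-mean (TMM) factors. This scaling levels the libraries over the genes left after those with the most extreme ratios and levels are trimmed. It moves every ratio toward the liver pool by 1.35 on the log2 scale. In the liver pool only 4868 of the 18521 slc38a4 reads were exon reads. Its share and the near equality therefore hold for total gene reads only. The near equality was also limited to the 34 genes. Further genes of these families carry other names and are described below. With them added the sums were 47429 embryo reads and 34957 liver reads, a ratio of 0.646 (0.637 to 0.655), or 1.65 with TMM factors.

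Most called members were higher in the embryo pool. A gene was called where the whole 95% interval of its ratio lay at or beyond 4-fold and the higher pool had at least 10 reads. By this rule 3 members (8.82%) were higher in the liver pool, where 3.35% of all 21750 genes tested were called that way. Another 15 (44.1%) were higher in the embryo pool, against 30.9% of all genes tested. With TMM factors 6 members were higher in the liver pool (17.6%, against 8.06% of all genes) and 9 in the embryo pool (26.5%, against 15.8%). Size factors gave 6 and 9 members, against 8.19% and 15.5% of all genes. With both scalings the 6 include slc6a3, which had no exon read in the liver pool. In exon reads 3 members were called toward the liver side and 18 toward the embryo side (3.38% and 36.4% of all genes), in unique reads 4 and 15 (3.45% and 30.3%), in junction reads 3 and 12 (2.94% and 29.8%), and with a 2-fold limit 5 and 21 (6.46% and 52.4%). The median log2 ratio was -2.07 over the members and -1.60 over all genes tested. Every member had at least 49 embryo reads, and 8 (23.5%) had fewer than 10 liver reads, a share close to the 24.2% of all genes tested.

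**Figure D1:**
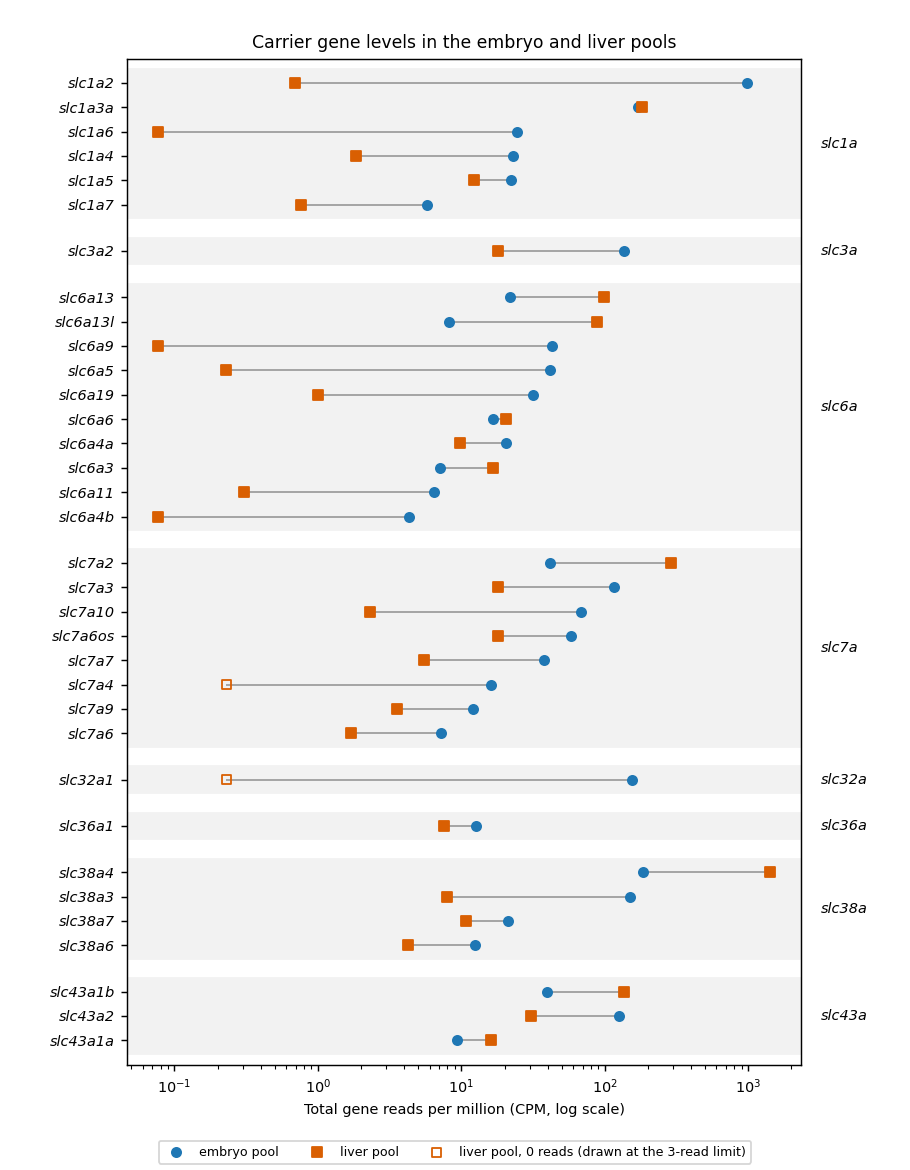
Level of each of the 34 genes among embryo reads (circles) and liver reads (squares), as total gene reads in CPM on a log axis, grouped by family; a line joins the pools and open squares mark 0 liver reads. slc38a4 is the rightmost liver square at 1422 CPM and slc1a2 the rightmost embryo circle at 986 CPM.

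By family the sums went in both directions. The slc38a family had 4198 embryo reads and 18820 liver reads, a ratio of 3.93 (3.80 to 4.06), and slc38a4 gave 98.4% of its liver reads (98.2 to 98.6). The ratio was lower in exon reads, at 1.57 (1.50 to 1.65), and in junction reads, at 1.50 (1.36 to 1.66). Without slc38a4 the ratio of the other 3 members was 0.125 (0.111 to 0.142), the opposite direction. The slc1a family had 14046 embryo reads and 2560 liver reads and was 6.26-fold more abundant (6.003 to 6.53) in the embryo pool. In that family slc1a2 gave 80.1% of the embryo reads (79.4 to 80.8) and slc1a3a 92.1% of the liver reads (91.0 to 93.1). The family sums therefore followed a leading gene that could differ between the pools.

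The other sums were closer together with library totals or rested on a single gene. The slc7a family had 4084 embryo reads and 4430 liver reads, a ratio of 0.9505 (0.911 to 0.992) that became 2.43 with TMM factors, and slc7a2 gave 85.7% of the liver reads (84.6 to 86.7). The slc6a family had 2294 embryo reads and 3077 liver reads (ratio 1.18, 1.11 to 1.24), with slc6a9 leading its embryo reads and slc6a13 its liver reads. The slc43a family had 2001 and 2394 reads, a ratio of 1.05 (0.987 to 1.11) whose interval includes 1. With TMM factors it was 2.68 (2.52 to 2.84). None of these 3 sums was called, although 1 slc6a member and 1 slc7a member were called toward the liver side, and 5 and 4 members toward the embryo side. The TMM counts were 3 slc6a, 1 slc7a and 1 slc43a members toward the liver side, and 3 slc6a and 2 slc7a members toward the embryo side. The slc6a members toward the liver side include slc6a3, which had no exon read in the liver pool. Of all genes tested, 3.35% and 30.9% were called in these directions with library totals, and 8.06% and 15.8% with TMM factors. The slc3a, slc32a and slc36a families had 1 member each, described below.

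**Figure D2:**
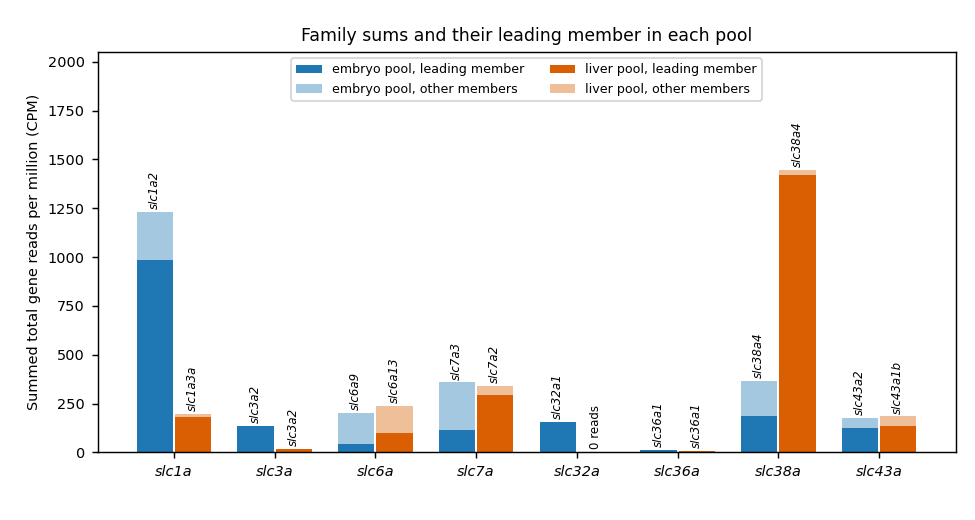
Summed total gene reads, in CPM, of each family among embryo reads (blue) and liver reads (orange), with the leading member of that pool in the full colour and named above the bar. The leading member differs between the pools in slc1a, slc6a, slc7a and slc43a, and slc38a4 makes up nearly all of the tallest liver bar.

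Most genes of carriers that clear or load neurotransmitters were called higher in the embryo pool with library totals. This group was formed after the values were seen, so its shares are a description and not a test. In it 7 of 11 genes were called higher in the embryo pool, where 30.9% of all genes were. None was called higher in the liver pool (3.35% of all genes). With TMM factors 5 were called toward the embryo side (15.8% of all genes) and 1, slc6a3, toward the liver side (8.06%). The group leaves out slc6a6 and the features named slc6a13 and slc6a13l, described below. Of these 3, 1 was called higher in the liver pool, or 2 with TMM factors, and none in the embryo pool. Fewer than 10 liver reads were found for 7 of the 11, the same genes that were called higher in the embryo pool with library totals. Of all genes tested 24.2% had so few. The gene of the vesicular GABA and glycine carrier, slc32a1, had 1772 embryo reads and 0 liver reads. With 3 reads, or 0.230 CPM, put in place of the count of 0, it was 674-fold higher among embryo reads. The exact lower 95% limit of its fold was 548. The glutamate carrier gene slc1a2, which in the vertebrate brain acts mostly in astroglia, had 11250 embryo reads and 9 liver reads and was 1427-fold more abundant (751 to 3121) in the embryo pool.

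Glycine carriers showed the same split. The gene of the glial glycine carrier, slc6a9, had 489 embryo reads and 1 liver read, a 558-fold difference (99.7 to 22087). The gene of the carrier of glycinergic nerve endings, slc6a5, had 474 embryo reads and 3 liver reads, a 180.3-fold difference (61.3 to 877). Both were thus near the detection limit in the liver pool, where their intervals are widest. Among the others, the glutamate carrier gene slc1a6, known from Purkinje cells of the cerebellum in mammals, had 279 embryo reads and 1 liver read, a 318-fold difference (56.7 to 12621). The GABA carrier gene slc6a11 had 74 embryo reads and 4 liver reads and was 21.1-fold more abundant (7.91 to 79.5) in the embryo pool, a call lost with TMM factors.

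The serotonin carrier genes differed from each other. The gene slc6a4b had 49 embryo reads and 1 liver read and was 55.9-fold more abundant (9.58 to 2253) in the embryo pool, a call lost with TMM factors. Its paralog slc6a4a had 233 embryo reads and 128 liver reads, all of them at a single position, and 32 of the liver reads crossed exon junctions. Its ratio of 0.481 (0.385 to 0.600) was not called and became 1.23 with TMM factors. A serotonin carrier gene was therefore present in both pools, at 20.4 CPM and 9.83 CPM. The retinal glutamate carrier gene slc1a7 had 66 embryo reads and 10 liver reads, and the upper limit of its ratio of 0.133 (0.0609 to 0.260) lay just short of the call. In exon reads, 47 against 2, its ratio of 0.0354 (0.00417 to 0.135) was called.

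For 2 genes of this group the answer depended on which reads were counted. The dopamine carrier gene slc6a3 had 81 embryo reads and 217 liver reads, a ratio of 2.35 (1.81 to 3.07). None of the 217 liver reads lay in an exon (0%, 0 to 1.69) and none had a single position, whereas 57 of the 81 embryo reads were exon reads. In exon reads slc6a3 was called higher in the embryo pool, with 57 against 0 and an upper limit of the ratio at 0.0557. None of its liver reads was thus assigned to the annotated dopamine carrier transcript. Only 12 of the 81 embryo reads had a single position (14.8%, 7.90 to 24.4). In those reads, 12 against 0, slc6a3 was not called, with an upper limit of the ratio at 0.335.

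The other was the glutamate carrier gene slc1a3a, another astroglial gene in the brain, with 1933 embryo reads and 2357 liver reads. Its ratio was 1.07 (1.01 to 1.14), or 2.73 with TMM factors, and was not called with either. Exon reads made up 23.2% (21.4 to 25.2) of its embryo reads and 82.8% (81.2 to 84.3) of its liver reads. In exon reads the ratio was 3.62 (3.27 to 4.02), and in junction reads, 83 against 353, it was 3.33 (2.62 to 4.28). In reads with a single position, 914 against 673, it was 0.685 (0.619 to 0.758), the opposite direction. Only 28.6% (26.7 to 30.4) of its liver reads had a single position, so the liver level of slc1a3a is uncertain, and the authors' RPKM values, which count exon reads scaled by exon length and library size, were 19.1 for the embryos and 72.8 for the livers.

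With library totals, genes that make or load transmitters also lay mostly on the embryo side. Among the 20 measured for transmitter synthesis and vesicle filling, 14 were called higher in embryos and none in livers (8 and 1 with TMM factors), and the median log2 ratio was -3.78. All genes tested had 30.9% and 3.35% called in these directions (15.8% and 8.06% with TMM factors) and a median of -1.60. The glutamate decarboxylase genes, which make the GABA that slc32a1 packs, had 4058 embryo reads and 11 liver reads for gad1 and 3770 embryo reads and 2 liver reads for gad2. The vesicular glutamate carrier gene slc17a6a had 594 embryo reads and 0 liver reads. The aromatic amino acid decarboxylase gene ddc, whose enzyme is also known from liver and kidney, had 516 embryo reads and 303 liver reads and was not called. All 12 measured neuron markers and all 7 markers of radial glia and astroglia were higher in the embryo pool, the latter summing to 1251 CPM in the embryo pool, against 99.1 CPM in the liver pool, of which glula gave 80.9 CPM and gfap 0.230 CPM. With TMM factors all 12 neuron markers and 4 of the 7 glial markers were called higher in the embryo pool, and fabp7b, glula and s100b were not. The part of these cells in the carrier differences was not tested.

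**Figure D3:**
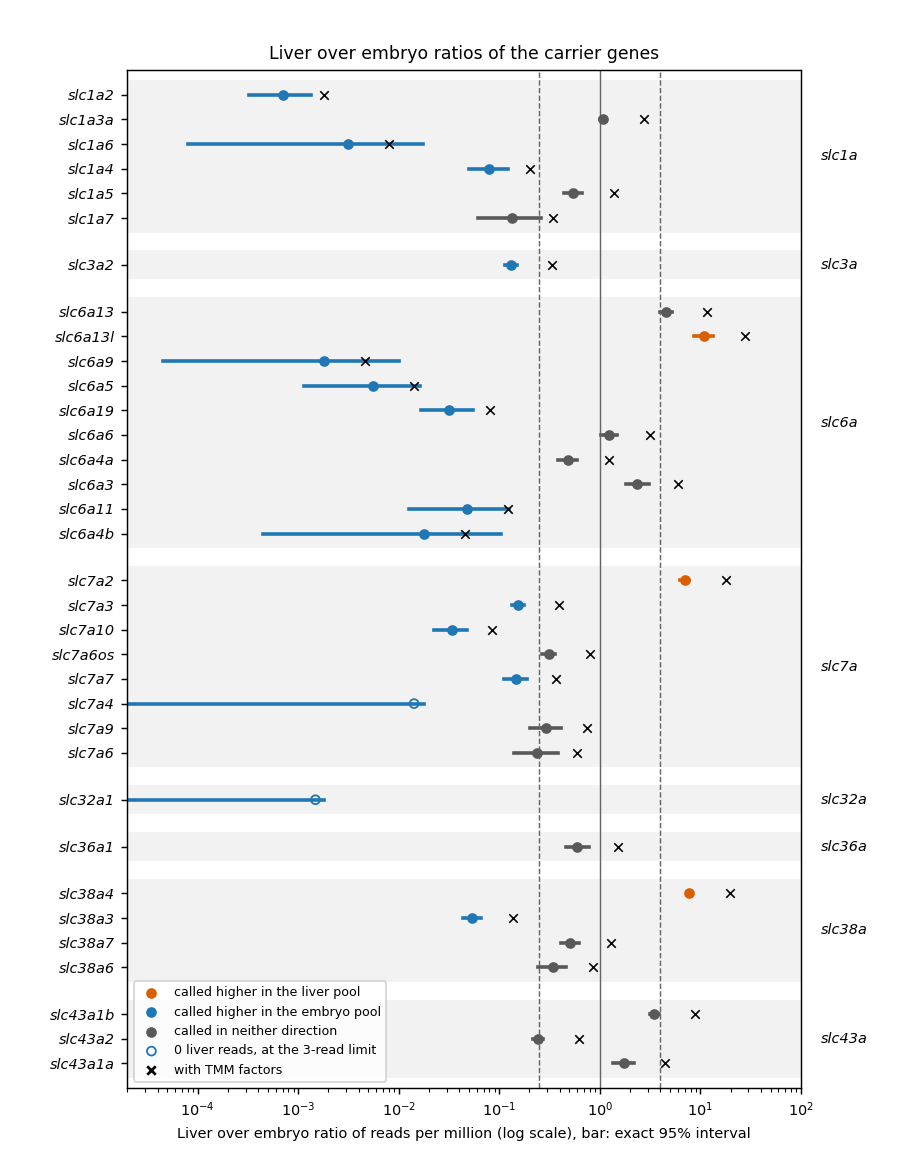
Liver over embryo ratio of each gene on a log axis, with its exact 95% interval as a bar, coloured by call; dashed lines mark 4-fold, crosses the ratio with TMM factors and open circles the ratio at the 3-read limit. slc6a13l, slc38a4 and slc7a2 lie beyond 4-fold on the liver side, and the neurotransmitter carriers slc1a2, slc32a1, slc6a9, slc1a6 and slc6a5 lie farthest to the embryo side.

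The most abundant member in the liver pool encodes a carrier of small neutral amino acids. The gene slc38a4, whose protein takes up alanine and other small neutral amino acids and is known from mammalian liver, had 2110 embryo reads and 18521 liver reads. It was 7.69-fold more abundant (7.35 to 8.05) in the liver pool, and 19.6-fold higher with TMM factors. By the authors' RPKM it was the highest member in the liver pool, at 251 against 42.0 in the embryo pool, and stood at rank 307 of all 27098 features there.

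Most reads of slc38a4 lay outside its annotated exons in both pools. Exon reads were 33.8% (31.8 to 35.9) of its embryo reads and 26.3% (25.7 to 26.9) of its liver reads, although 97.0% (96.1 to 97.7) and 98.3% (98.1 to 98.5) had a single position. The difference held within the exons, with 714 embryo reads and 4868 liver reads and a ratio of 5.68 (5.25 to 6.15). It was also called from reads across exon junctions, 155 against 1136, at 5.74 (4.85 to 6.83). The RPKM of slc38a4 counts only the exon part, so its level for a given length is lower than all of its reads would give.

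The remaining slc38a members had ratios under 1 with library totals, and of these only slc38a3 was called. The feature named slc38a3, which RefSeq now calls slc38a5b, a glutamine carrier gene, had 1703 embryo reads and 104 liver reads and was 18.7-fold more abundant (15.3 to 23.0) in the embryo pool, called with TMM factors too. The gene slc38a6 had 142 embryo reads and 55 liver reads, a ratio of 0.339 (0.244 to 0.466), or 0.866 (0.623 to 1.19) with TMM factors. The gene slc38a7, whose mammalian protein exports glutamine from lysosomes, had 243 embryo reads and 140 liver reads, a ratio of 0.505 (0.407 to 0.624) that became 1.29 with TMM factors. Among the slc38a members, then, the features named slc38a3 and slc38a4 were called in opposite directions, and the other 2 members in neither. The gene that RefSeq now calls slc38a3a (zgc:165543 in the files) is not a member. It had 115 embryo reads and 150 liver reads. Its ratio was 1.14 (0.890 to 1.47), or 2.92 with TMM factors, and was not called with either.

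Other carriers of neutral amino acids were mostly within 4-fold. The gene slc1a5, whose mammalian relative exchanges glutamine, had 255 embryo reads and 159 liver reads (ratio 0.546, 0.445 to 0.669, and 1.39 with TMM factors). Its relative slc1a4, which carries alanine, serine, cysteine and threonine, had 263 embryo reads and 24 liver reads and was 12.5-fold more abundant (8.22 to 19.9) in the embryo pool, a call lost with TMM factors. The proton-coupled carrier gene slc36a1, which acts in lysosomes and at the gut surface in mammals, had 144 embryo reads and 98 liver reads (ratio 0.596, 0.457 to 0.776, and 1.52 with TMM factors). Only 29.6% (20.8 to 39.7) of the slc36a1 liver reads were exon reads, against 82.6% (75.4 to 88.4) in the embryo pool, and the ratio in exon reads was 0.203 (0.130 to 0.307). These 3 genes thus had few liver reads, and the directions of slc1a5 and slc36a1 rested on the scaling.

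The gene of the main neutral amino acid carrier of gut and kidney, slc6a19, was nearly absent from the liver pool. It had 363 embryo reads and 13 liver reads, a 31.9-fold difference (18.4 to 60.4), and the call held with TMM factors. Enterocyte markers summed to 1066 CPM in the embryo pool, against 84.5 CPM in the liver pool, with all 5 called higher in the embryo pool. Kidney tubule markers summed to 697 CPM and 83.1 CPM, with 7 of 8 called that way, against 30.9% of all genes tested. With TMM factors 2 of the 5 and 3 of the 8 were called, against 15.8% of all genes tested. The part of these cells in the slc6a19 difference was not tested.

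The slc43a genes, for carriers of large neutral amino acids, had ratios on both sides of 1, and none was called with library totals. The gene slc43a1b, whose mammalian relative passes leucine and other large amino acids in liver and pancreas, had 451 embryo reads and 1786 liver reads. Its ratio of 3.47 (3.13 to 3.86) lay just under the limit of the call and was called at 8.86 with TMM factors. Its paralog slc43a1a had 107 embryo reads and 211 liver reads (ratio 1.73, 1.36 to 2.20, and 4.41 with TMM factors, not called). Only 36.02% (29.5 to 42.9) of its liver reads had a single position, and its ratio in junction reads was 0.725 (0.483 to 1.09). By contrast, slc43a2 had 1443 embryo reads and 397 liver reads and a ratio of 0.241 (0.215 to 0.270), with an upper limit just short of the call. With TMM factors its ratio was 0.615 (0.549 to 0.688). In the list of exocrine pancreas, a tissue that also carries such genes, 2 of 10 markers were called higher in the embryo pool and 8 in neither. Of all genes tested 30.9% were called higher in the embryo pool. The part of this tissue in the slc43a values was not tested.

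The cationic amino acid carrier genes slc7a2 and slc7a3 were called in opposite directions with library totals. The gene slc7a2, which takes up arginine, lysine and ornithine and has a liver isoform in mammals, had 476 embryo reads and 3795 liver reads and was 6.99-fold more abundant (6.35 to 7.70) in the liver pool, and 17.8-fold higher with TMM factors. Its relative slc7a3 had 1333 embryo reads and 233 liver reads and was 6.53-fold more abundant (5.68 to 7.54) in the embryo pool, a call lost with TMM factors. In the authors' RPKM slc7a2 stood at 11.5 for the embryos and 84.8 for the livers, and slc7a3 at 25.3 and 3.57. So slc7a3 had the higher RPKM level of the pair in the embryo pool and slc7a2 in the liver pool. The gene slc7a4, which resembles them and whose substrate is not established, had 185 embryo reads and 0 liver reads. With 3 reads put in place of the count of 0, slc7a4 was 70.4-fold higher among embryo reads. The exact lower 95% limit of its fold was 56.7. Of its embryo reads 47.0% had a single position. Under other names in the files, slc7a1a (LOC559627) had a ratio of 0.432 (0.348 to 0.533) and slc7a3b (LOC100003376) of 0.533 (0.393 to 0.719). Neither was called with library totals or TMM factors.

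The heavy chain gene slc3a2 and the 4 light chain genes had ratios under 1, and none was called higher in the liver pool with library totals or TMM factors. The gene slc3a2 encodes the heavy chain that most light chains of slc7 need, and it had 1565 embryo reads and 236 liver reads, a 7.57-fold difference (6.60 to 8.72). Of the light chain genes, slc7a10, for small neutral amino acids and D-serine, had 784 embryo reads and 30 liver reads, a 29.8-fold difference (20.7 to 44.5). The gene slc7a7, for exchange of cationic against neutral amino acids, had 428 embryo reads and 71 liver reads, a 6.88-fold difference (5.34 to 8.97). All 3 were called higher in the embryo pool with library totals, and slc7a10 alone kept the call with TMM factors. The shares of all genes tested called higher in the embryo pool were 30.9% and 15.8%. Leukocyte markers, in view of the known use of slc7a7 in macrophages, summed to 105 CPM in the embryo pool, against 56.9 CPM in the liver pool. Of these 6 markers 1 was called higher in the embryo pool, where 30.9% of all genes tested were. The part of leukocytes was not tested.

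The remaining light chain genes were not called. The gene slc7a6, a close relative of slc7a7, had 82 embryo reads and 22 liver reads, with a ratio of 0.235 (0.140 to 0.380). The gene slc7a9, for cystine and cationic amino acids in kidney and gut, had 138 embryo reads and 46 liver reads, with a ratio of 0.292 (0.204 to 0.410), or 0.746 (0.522 to 1.05) with TMM factors. Exon reads of slc7a9, 92 against 14, gave 0.127 (0.0667 to 0.224), which was called. The neighbour gene slc7a6os, no carrier, had 658 embryo reads and 233 liver reads and a ratio of 0.310 (0.266 to 0.361), also not called.

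The feature pair named slc6a13 and slc6a13l had the highest liver levels of its family. RefSeq now calls these adjacent genes slc6a22.1 and slc6a22.2 and gives the name slc6a13, which in mammals is a GABA and taurine carrier of liver and kidney, to a gene elsewhere. The gene slc6a13l had 93 embryo reads and 1149 liver reads and was 10.8-fold more abundant (8.76 to 13.5) in the liver pool, the highest ratio of all 34 genes. Its neighbour slc6a13 had 249 embryo reads and 1295 liver reads, a ratio of 4.56 (3.98 to 5.24) whose lower limit missed the call, and it was called with unique reads at 4.84 and with TMM factors at 11.6. In both genes 96.8% or more of the reads of either pool had a single position, and 412 and 197 liver reads crossed exon junctions, so both transcripts were measured apart. The taurine carrier gene slc6a6 had 189 embryo reads and 266 liver reads. Its ratio was 1.23 (1.02 to 1.49), or 3.15 with TMM factors, and was not called with either.

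In order of the authors' RPKM, which allows levels of different genes to be compared, the liver pool was led by slc38a4 at 251, slc7a2 at 84.8, slc1a3a at 72.8, slc6a13l at 40.0, slc6a13 at 33.9 and slc43a1b at 32.7. The embryo pool was led by slc1a2 at 242, slc3a2 at 65.1, slc38a3 at 53.7, slc32a1 at 50.2 and slc38a4 at 42.0. Among these leading genes only slc38a4 is named for both pools. With 1 library per pool the spread of these levels is unknown, so neighbours in either order cannot be told apart.

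**Figure D4:**
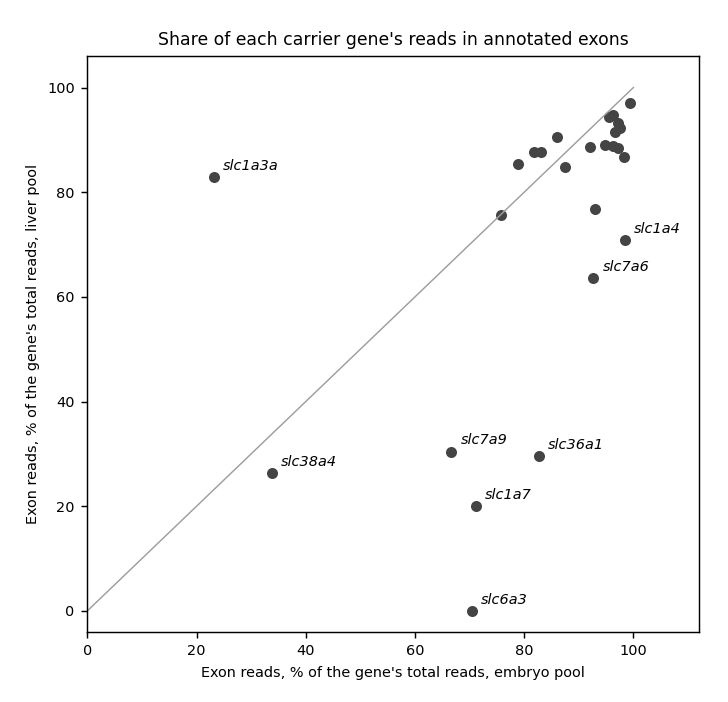
Exon reads as a percentage of each gene's total gene reads for embryo reads (x axis) and liver reads (y axis), for the 26 genes with at least 10 reads in both pools; the line marks equal shares and the 8 genes away from the rest are named. slc38a4 is low in both pools, slc1a3a is low in the embryo pool only, and slc6a3 has no exon read in the liver pool.

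Few genes that sense or answer to amino acid supply were called. Of 12 measured genes of the ATF4 response, which cells turn on when amino acids run short, 1 was called toward the embryo side and none toward the liver side with library totals or TMM factors. Over all genes tested these shares were 30.9% and 3.35% with library totals and 15.8% and 8.06% with TMM factors. The list's median log2 ratio was -1.50, near the -1.60 over all genes. The asparagine synthetase gene asns, a standard target, had 391 embryo reads and 450 liver reads. Its ratio was 1.01 (0.879 to 1.16), or 2.57 with TMM factors. The glutathione-degrading chac1 had 3261 and 3761 reads and the same ratio of 1.01 (0.964 to 1.06), or 2.58 with TMM factors. The exception was phgdh, the first enzyme of serine synthesis, with 451 embryo reads and 5 liver reads, a 103-fold difference (43.8 to 319). Of 16 measured genes through which mTORC1 senses amino acids, 3 were called higher in the embryo pool (1 with TMM factors) and none in the liver pool, with a median of -1.13. The gene rptor (LOC560455 in the files) encodes a core subunit. With library totals it was 12.7-fold more abundant (11.7 to 13.9) in the embryo pool by total gene reads. It was also called with TMM factors, at a ratio of 0.200, but its ratio in exon reads was 0.461 and not called.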

How the data were processed

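Total RNA of both pools was sequenced, and each deposited table lists the same 27098 features. Per the file headers, the values are raw counts of reads in gene regions, exons and junctions, split into unique reads and totals that include reads with several positions. The authors also deposited RPKM, which recomputed from total exon reads, exon length and the sum of total gene reads to within 0.00217. Exon length is given in the deposited tables as another number, in bases. The deposited median coverage was not used. Neither the labels nor the headers name an aligner, annotation or build, and genome positions are left out.

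CPM values were computed from total gene reads and the library totals. Ratios carry exact conditional binomial 95% intervals (SciPy 1.17.1), and a count of 0 was set at 3 reads for folds and medians. Reads of the same fragment or PCR copies are not independent, which makes intervals too narrow. Genes tested had at least 10 reads in either pool. Alternatives used TMM factors (edgeR 4.0.16), size factors (DESeq2 1.42.0), unique, exon or junction reads, other count minimums and a 2-fold limit.

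The members, the 3 pathway lists, the 15 marker lists and the alternatives were chosen with earlier results of these data known, the junction reads and the grouping by role after the values were seen. Every member could be named, and those given in full are the most abundant and most different of each family and those at 0. Names were matched to RefSeq (assembly GRCz12tu, names only): of the 34 members 22 matched by symbol, 10 by synonym, slc6a13 by synonym and neighbouring gene, and 1, slc7a3, did not match.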

Additional observations from a re-analysis of the deposited data

How the results depend on the processing

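No paired analysis was possible because each group held 1 library, and for the same reason none could be left out. On the log2 scale, ratios rose by 1.35 with TMM factors and by 1.38 with size factors. Members called higher in the liver pool numbered 6 with TMM factors, 6 with size factors and 5 with a 2-fold limit, against 3, and those called higher in the embryo pool 9 with TMM factors and 9 with size factors, against 15. The shares of all genes tested moved the same way. They were 8.06%, 8.19% and 6.46% toward the liver side, against 3.35%, and 15.8% and 15.5% toward the embryo side, against 30.9%. With features added by their current symbol, 38 of 70 measured genes were called higher in the embryo pool, where 30.9% of all genes tested were. This count comes from a larger set than the 15 of 34. Ratios that crossed 1 with TMM and size factors were those of slc38a7 (1.29 and 1.32), slc36a1 (1.52 and 1.55), slc1a5 (1.39 and 1.42), slc6a4a (1.23 and 1.25) and the slc7a sum (2.43 and 2.48), and the slc36a sum, a single gene, had the same values as slc36a1. The slc1a sum (0.408 and 0.416) and the slc3a sum (0.337 and 0.344) lost their calls and the slc38a sum gained one (10.03 and 10.2). With unique reads slc1a3a stood at 0.685, slc6a3 at 0, and the slc1a, slc7a and slc38a sums at 0.0603, 1.05 and 4.20. With exon reads slc6a3 stood at 0 and the slc6a and slc38a sums at 0.990 and 1.57, and with junction reads slc6a3 at 0, slc43a1a at 0.725 and the slc1a, slc38a and slc43a sums at 0.240, 1.50 and 1.73. Without the most abundant member, the sums were 0.799 for slc1a, 0.764 for slc6a, 0.154 for slc7a, 0.125 for slc38a and 0.344 for slc43a; slc3a, slc32a and slc36a have 1 member and gave no such value. With features added by current symbol the slc6a sum was 0.286 and the slc43a sum 0.578, and without slc7a6os the slc7a sum was 1.07. The scaling and the change of members cause these shifts by construction, and the cause of the differences between read types was not tested. The other counts and sums kept their direction and call under the settings run. Low counts limit the folds of genes with under 10 liver reads to wide intervals.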

Other observations

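Many genes of the same families carry other names in the files and were not among the 34. Through RefSeq, 37 further features have a current symbol of these families, and 36 of them were measured. None was called higher in the liver pool and 23 were called higher in the embryo pool, or 0 and 18 with TMM factors. Over all genes tested 3.35% and 30.9% were called in these directions, or 8.06% and 15.8% with TMM factors. The GABA carrier genes slc6a1b (zgc:103663 in the files), with 2748 embryo reads and 1 liver read, and slc6a1a (zgc:136569), with 1361 and 3, were among them, as was the glutamate carrier gene slc1a2a (LOC560802), a paralog of the gene named slc1a2, with 543 embryo reads and 0 liver reads. The gut and kidney carrier genes slc6a19a.1 (zgc:162095) and slc6a19a.2 (LOC100334171), paralogs of slc6a19, had 765 embryo reads and 33 liver reads, and 898 and 11.

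Heavy and light chain genes under other names did not all follow slc3a2. Its paralog slc3a2b (zgc:55813) had 1742 embryo reads and 60 liver reads and was 33.1-fold more abundant (25.6 to 43.6) in the embryo pool. The heavy chain gene slc3a1 (LOC557757), partner of slc7a9, had 147 embryo reads and 152 liver reads and a ratio of 0.906 (0.717 to 1.14), or 2.31 with TMM factors, and was not called. The light chain gene slc7a5 (LOC797250), a carrier of large neutral amino acids, had 233 embryo reads and 0 liver reads. With 3 reads put in place of the count of 0, slc7a5 was 88.6-fold higher among embryo reads. The exact lower 95% limit of its fold was 71.5, but only 1.29% of its embryo reads had a single position. The small neutral amino acid carrier gene slc38a2 (si:ch211-132p20.4), relative of slc38a4, had 1618 embryo reads and 1850 liver reads. Its ratio was 1.002 (0.937 to 1.07), or 2.56 with TMM factors. The slc43a2 paralog slc43a2b (zgc:103664) had 2107 embryo reads and 123 liver reads and was 19.5-fold more abundant (16.3 to 23.6) in the embryo pool.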
